A study of Mus musculus with 5 samples.

Results

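DNA replication is carried out by a set of proteins that are described here through their transcripts in the mouse cerebellum. The 58 genes were chosen by name and role, with earlier results of these data known. They cover origin licensing, helicase activation, the sliding clamp and its loaders, the replicative polymerases and nucleotide supply. Strand joining, chromatin assembly and protection of the fork are also covered. All 58 were found among the 55421 genes of the count table, and 56 of them had enough reads to be tested. Orc1, a subunit of the origin recognition complex, and Dscc1, a subunit of an alternative clamp loader, did not pass the filter on low counts.

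Whole cerebella were profiled by bulk RNA-seq at postnatal day 14. The 3 Yy1 cKO libraries came from Pcp2 Cre/+; Yy1 fx/fx mice and the 2 control libraries from Pcp2 Cre/+; Yy1 fx/+ littermates, so both groups carry the Cre driver and the controls also carry 1 floxed copy of Yy1, which encodes a zinc finger transcription factor. Pcp2-Cre acts in Purkinje cells, while the counts come from all cells of the cerebellum. Sex was mixed, and the labels give no animal or litter for a library. The p-values therefore rest on the variation among the 5 libraries, part of which may be technical.

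Replication starts when the origin recognition complex, CDC6 and CDT1 load the MCM helicase onto DNA in G1. In S phase kinases, CDC45 and the GINS complex switch the helicase on, primase and polymerase alpha start the strands, and polymerases delta and epsilon extend them behind the PCNA clamp. In the cerebellum at this age the cells best known for replicating DNA are the granule cell precursors of the external granular layer, whose divisions end in the third postnatal week, with dividing glial precursors beside them. Many replication genes are transcribed under the control of E2F factors as cells enter S phase, while several also serve DNA repair in cells that no longer divide.

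Total counts were 17424860 to 20305705 per library. Yy1 itself stood at 73.4, 81.7 and 75.8 CPM (TMM-scaled CPM, a count relative to library size) in Yy1 cKO and at 74.6 and 73.7 CPM in controls, a log2 fold change of 0.05 ± 0.065 (SE, adjusted p = 0.61, edgeR). The value covers all cells of the tissue, with and without Cre, and the whole gene, so it does not check the deletion. Yy1 cKO 3 stood apart from the other 4 libraries on the second principal component (18.5% of variance). Y-linked transcripts were found in Yy1 cKO 3 and control 1 and not in the other 3 libraries. The median log2 difference of the replication genes, Yy1 cKO minus control, was -0.17 between the libraries with Y-linked transcripts and -0.35 between those without. Of 13 markers of the granule cell lineage, not all of them limited to progenitors, 9 fell and none rose. Their summed levels were 1742 to 1936 CPM in Yy1 cKO and 2149 to 2168 CPM in controls. Most of that sum was Zic1 and Neurod1, at means of 1148 and 559 CPM in controls. Neither was called, and they kept 96.5% and 93.2% of control, so the sum says little about the markers that fell. Mki67, the proliferation marker, had 41, 23 and 14 counts in Yy1 cKO against 700 and 522 in controls. Atoh1 had 0, 1 and 0 counts in Yy1 cKO against 16 and 19 in controls. Of 8 oligodendrocyte precursor markers 7 fell, with summed levels of 218 to 239 CPM in Yy1 cKO and 314 to 334 CPM in controls. For these marker counts, the shares over all genes tested were 12.6% called lower and 10.7% called higher. Endothelial markers moved both ways (4 lower and 2 higher of 8; 162 to 168 CPM against 176 to 192 CPM), 4 of 6 tested erythroid genes rose (596 to 963 CPM against 263 to 304 CPM; each call was lost in 4 to 8 of 16 alternatives, leaving out either control among them), none of 7 tested microglia markers was called (75.2 to 106 CPM against 86.1 to 91.4 CPM), and 1 of 8 Purkinje cell markers rose. That was Itpr1, at 2697, 2806 and 2256 CPM in Yy1 cKO and 1548 and 1524 CPM in controls, while the groups overlapped in the other 7. A rise in 1 of 8 is near the share of all genes called higher (10.7%). The sum over all 8 Purkinje cell markers was 4889 to 5717 CPM in Yy1 cKO and 4190 to 4336 CPM in controls. Itpr1 is part of that sum, with means of 2586 CPM in Yy1 cKO and 1536 CPM in controls. The sum therefore says little about the other 7. At least 1 alternative ended 1 of 9 calls among granule cell lineage markers, 5 of 7 among oligodendrocyte precursor markers and 3 of 6 among endothelial markers. The part of these cell types in the values below was not tested. In bulk tissue, fewer cells of a type and less RNA per cell cannot be told apart.

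Part of the replication genes fell. Of 56 tested, 20 fell in Yy1 cKO (35.7%), 1 rose and 35 did not pass the test (quasi-likelihood test of edgeR, with p adjusted by Benjamini-Hochberg over 20388 genes and called under 0.05). The range of log2 fold changes was -5.07 to 0.44. Over all genes tested 12.6% were called lower and 10.7% higher. At least 2-fold falls were called for 15 of the 56 (4.29% of all genes) and at least 4-fold falls for 6 (1.44% of all genes). The median log2 fold change was -0.30 over the 56 and -0.00086 over all genes tested. All 20 that fell had every Yy1 cKO library below both controls. No called gene of the whole table had overlapping groups, so this separation adds no support to the 20 calls. Of the other 36, 14 were also separated in that direction. Of all 56, 34 were, against 27% of all genes tested, a share that includes the called genes. In the upward direction 7 of the 56 were separated, against 25.2% of all genes tested. The 20 that fell kept a median of 34.2% of their control level, and the other 36 a median of 94.5%. The sets were divided by the call on these same values, so a gap between them follows from the split. Leaving out 1 control reduced the number called lower to 11 (without control 1) or 13 (without control 2), when 5.98% and 6.12% of all genes were called lower.

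The genes with the deepest falls were Pclaf (ENSMUSG00000040204.6, chr9:65890237-65903266), Tk1 (ENSMUSG00000025574.13, chr11:117815526-117826092), Mcm10 (ENSMUSG00000026669.14, chr2:4989714-5012791) and Rrm2 (ENSMUSG00000020649.11, chr12:24708241-24714146), all on GRCm38. The libraries were strand-specific, but the strand setting of the counting is not given in the sources used here. Of the 56 genes 16 have an exon that overlaps one on the opposite strand, and 4 of these fell. Of the other 40, 16 fell and 1 rose. Opposite-strand exons cover up to 2039 of 2422 exon bases of Fen1, 2758 of 4097 of Gins2 and 4648 of 8854 of Chaf1a. The counts of Fen1, Gins2 and Chaf1a, which were not called, are therefore uncertain.

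**Figure D1:**
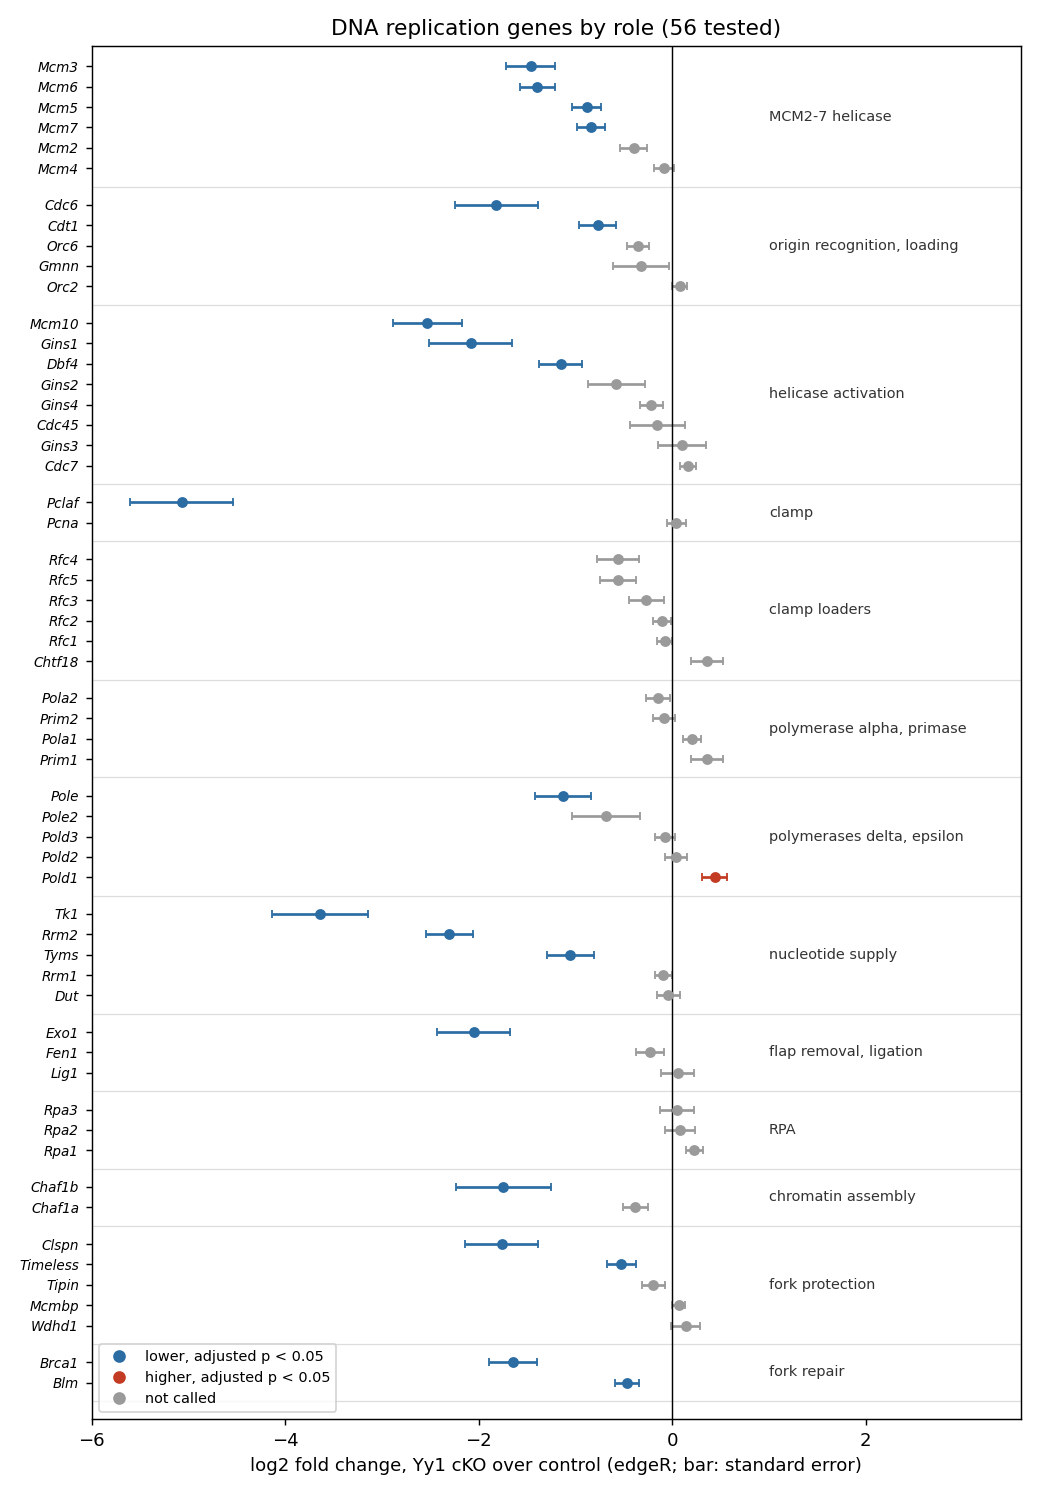
Log2 fold change of the 56 tested replication genes, Yy1 cKO over control, ordered by role, with the standard error as bar. Blue points fell and the red point rose at an adjusted p under 0.05; the falls range from -5.07 for Pclaf to -0.46 for Blm, and most roles hold both blue and grey points.

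The MCM helicase, a ring of 6 related subunits that unwinds the parental DNA, was split. Mcm3, Mcm5, Mcm6 and Mcm7 fell (66.7%, against 12.6% of all genes), Mcm2 and Mcm4 did not pass. Mcm6 stood at 3.37, 2.57 and 3.71 CPM in Yy1 cKO and at 8.60 and 8.37 CPM in controls. All 3 Yy1 cKO libraries lay below the lower control, and the log2 fold change was -1.40 ± 0.18 (SE, adjusted p = 5.3e-04, edgeR). Mcm7 stood at 9.46, 9.91 and 12.8 CPM in Yy1 cKO and at 20.3 and 18.1 CPM in controls, again without overlap (-0.84 ± 0.14, adjusted p = 0.0024, edgeR). Mcm3 fell by 1.46 ± 0.25 and Mcm5 by 0.88 ± 0.15 on the log2 scale. Mcm4 stood at 12.2, 12.4 and 12.9 CPM in Yy1 cKO and at 13.6 and 12.9 CPM in controls, with groups just apart (-0.08 ± 0.10, adjusted p = 0.62, edgeR). Mcm2 lay between these (-0.40 ± 0.14, adjusted p = 0.069, edgeR).

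Levels of the subunits were set side by side per kb of annotated exon, which can overstate the length of the transcripts in use. In Yy1 cKO the lowest subunit was Mcm3 at 0.549 CPM per kb and the highest Mcm4 at 3.49 CPM per kb, a 6.36-fold range. In controls the lowest was Mcm2 at 1.34 CPM per kb and the highest Mcm7 at 4.34 CPM per kb, a 3.24-fold range. The ratio of Mcm6 to Mcm4 on this scale was 0.212, 0.159 and 0.221 in Yy1 cKO libraries and 0.486 and 0.497 in controls. This ratio does not depend on how libraries were scaled, and the groups did not overlap (exact permutation test over libraries, two-sided p = 0.1, the smallest that 3 against 2 libraries allow). Ratios of 9 gene pairs were compared in all, chosen after the fold changes had been seen, and none of them can pass 0.05 in this design.

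**Figure D2:**
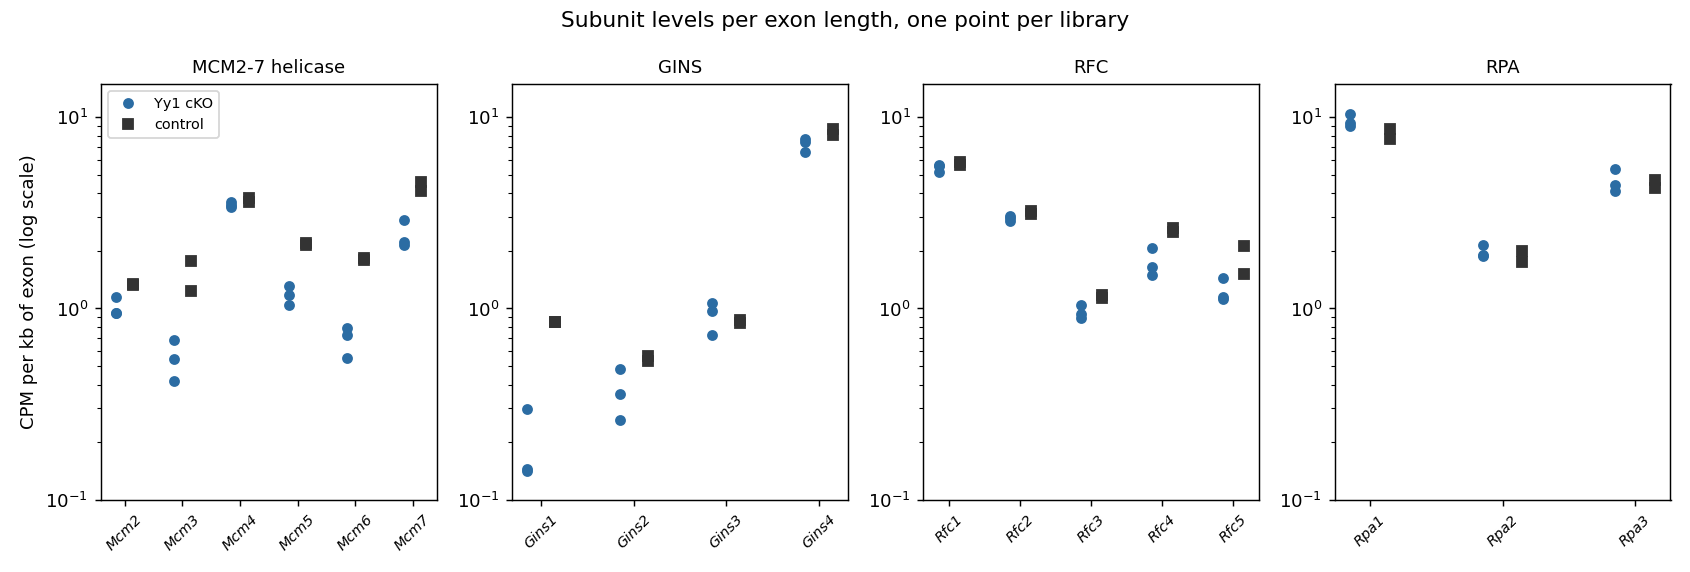
Level per kb of exon (log scale) of each subunit of the MCM helicase, GINS, RFC and RPA, with 1 point per library, Yy1 cKO (blue circles) left of control (black squares). In the MCM helicase Mcm3, Mcm5, Mcm6 and Mcm7 lie lower in Yy1 cKO while Mcm4 stays near 3.5 CPM per kb, in GINS Gins1 stands apart, and in RPA the groups lie close together.

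Promoters of the MCM genes and of the clamp partner Pclaf are shown because they are the 4 members with the smallest p whose promoter holds an E2F-type sequence. The letters searched were TTTCCCGC, TTTGGCGC, TTTCGCGC and TTTGCCGC on both strands, in the 300 bases from 250 before to 50 after the RefSeq start (GRCm38.p6). Capitals mark the matches, some of which overlap or read on the opposite strand, and each sequence runs 5′ to 3′ along the gene from 250 bases before the start over 260 bases. Pclaf lies at chr9:65890073-65890332 (plus strand), Mcm6 at chr1:128359696-128359955 (minus strand), Mcm7 at chr5:138171874-138172133 (minus strand) and Mcm5 at chr8:75109259-75109518 (plus strand).
Pclaf: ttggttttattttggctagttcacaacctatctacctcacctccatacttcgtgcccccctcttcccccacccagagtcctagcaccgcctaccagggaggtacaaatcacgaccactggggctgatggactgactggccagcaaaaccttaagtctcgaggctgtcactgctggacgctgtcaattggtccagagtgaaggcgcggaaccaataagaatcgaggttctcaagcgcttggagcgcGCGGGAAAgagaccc
Mcm6: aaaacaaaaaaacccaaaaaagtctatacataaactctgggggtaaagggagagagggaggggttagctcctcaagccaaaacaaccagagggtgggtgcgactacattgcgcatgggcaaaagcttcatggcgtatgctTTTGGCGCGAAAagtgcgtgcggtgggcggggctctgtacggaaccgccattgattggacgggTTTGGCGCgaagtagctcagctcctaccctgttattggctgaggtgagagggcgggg
Mcm7: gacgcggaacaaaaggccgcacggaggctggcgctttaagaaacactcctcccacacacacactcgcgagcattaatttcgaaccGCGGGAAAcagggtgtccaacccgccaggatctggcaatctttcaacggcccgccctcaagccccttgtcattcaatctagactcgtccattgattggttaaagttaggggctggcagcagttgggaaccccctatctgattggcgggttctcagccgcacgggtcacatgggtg
Mcm5: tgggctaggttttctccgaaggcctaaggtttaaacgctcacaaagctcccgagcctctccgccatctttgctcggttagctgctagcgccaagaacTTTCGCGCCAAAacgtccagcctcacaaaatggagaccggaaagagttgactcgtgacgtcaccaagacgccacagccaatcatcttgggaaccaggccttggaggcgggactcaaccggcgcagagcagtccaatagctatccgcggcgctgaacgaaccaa

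In Mcm6 there were 3 matches, beginning at positions -110, -106 and -47 from the start, the first pair overlapping. In Mcm5 an overlapping pair began at -153 and -149, in Mcm7 matches began at -165 and at 17, the last outside the bases shown, and in Pclaf the match began at -5. Of the MCM subunits 5 had a promoter in the RefSeq table, all but Mcm4, and 4 of them held a match. These were Mcm3, Mcm5, Mcm6 and Mcm7, the same 4 that fell, so Mcm2 was the only subunit not called that could be searched. In Mcm3 the matches began at 20 and 39, after the start, so 3 of the 5 held one before it. Among members called lower 8 of 17 with a promoter in the table held a match (47.1%), against 8 of 29 (27.6%) among those tested and not called lower. Over all genes tested with a RefSeq promoter, 4.39% held one, as did 5.09% of those called lower. Of all 32851 RefSeq windows 2.26% did. The CCAAT box, searched on both strands, was in 58.8% of members called lower, 58.6% of the other tested members and 42.8% of all genes tested. These are matches of letters, not measured binding.

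Proteins that recognise the origin and load the helicase differed among themselves. Cdc6, the ATPase that closes the loading complex, had 4, 8 and 11 counts in Yy1 cKO and 30 and 23 in controls, and fell by 1.82 ± 0.43 (SE, adjusted p = 0.014, edgeR). Cdt1, its partner that brings the helicase, stood at 3.57, 3.07 and 3.38 CPM in Yy1 cKO against 6.56 and 4.85 CPM in controls (-0.77 ± 0.19, adjusted p = 0.018, edgeR). In both genes every Yy1 cKO library lay below the lower control. Orc2, an origin recognition subunit, stood at 33.5, 35.8 and 33.7 CPM in Yy1 cKO against 33.5 and 31.6 CPM in controls (0.08 ± 0.079, adjusted p = 0.54, edgeR). Orc6, another subunit of that complex, lay at -0.35 ± 0.12 (adjusted p = 0.053, edgeR) and was called lower in 5 of 16 alternatives. Gmnn, geminin, which holds CDT1 in check after origins have fired, had -0.32 ± 0.29 (adjusted p = 0.48, edgeR). The untested Orc1 had 3, 2 and 6 counts in Yy1 cKO and 14 and 6 in controls. The Cdc6 call was lost without control 1 or control 2 and the Cdt1 call without control 1 or Yy1 cKO 2.

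Of 8 genes that switch the loaded helicase on, 3 fell (37.5%, against 12.6% of all genes) and none rose (10.7% of all genes). Mcm10, which acts as the helicase starts to move, had 7, 7 and 16 counts in Yy1 cKO and 55 and 58 in controls. On the log2 scale the fold change came to -2.53 ± 0.36 (SE, adjusted p = 8.8e-04, edgeR), with all Yy1 cKO libraries far below both controls. Dbf4, the activating subunit of the CDC7 kinase, stood at 1.86, 2.79 and 2.36 CPM in Yy1 cKO against 5.70 and 4.68 CPM in controls (-1.15 ± 0.22, adjusted p = 0.0048, edgeR). Cdc7, the kinase itself, stood at 26.8, 26.8 and 27.01 CPM in Yy1 cKO, above 24.1 and 23.9 CPM in controls, but did not pass (0.16 ± 0.084, adjusted p = 0.20, edgeR). The GINS complex has 4 subunits, and Gins1 was the subunit that fell, with 9, 4 and 4 counts in Yy1 cKO and 24 and 23 in controls (-2.08 ± 0.43, adjusted p = 0.0071, edgeR). Gins3 had 39, 53 and 49 counts in Yy1 cKO and 44 and 41 in controls, with overlapping groups (0.10 ± 0.25). Gins2 (-0.58 ± 0.29), Gins4 (-0.22 ± 0.12) and Cdc45 (-0.15 ± 0.29) did not pass either. Between the subunits at the ends of the range, Gins1 and Gins4, the level per kb differed 37.1-fold in Yy1 cKO; in controls the ends were Gins2 and Gins4, at 15.4-fold. The Gins1 call was lost without either control and the Dbf4 call without control 1.

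The clamp and its partner showed the widest gap between members of 1 role. Pclaf encodes a small protein that binds PCNA and had 3, 0 and 3 counts in Yy1 cKO against 88 and 50 in controls. Its log2 fold change of -5.07 ± 0.53 (SE, adjusted p = 1.8e-04, edgeR) was the largest fall among the 56. Pcna, the sliding clamp, stood at 18.9, 20.7 and 20.7 CPM in Yy1 cKO and at 19.1 and 19.96 CPM in controls. These groups overlapped (0.04 ± 0.097, adjusted p = 0.80, edgeR). The annotation names 2 Pcna pseudogenes that could share its reads, so the Pcna count is uncertain.

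Of 6 clamp loader genes tested none was called in the main test, while 12.6% of all genes were called lower and 10.7% higher. Rfc5 was called lower in 5 of 16 alternatives, library size alone and the replicate block among them. The large subunit Rfc1 stood at 33.7, 31.0 and 33.6 CPM in Yy1 cKO against 35.1 and 34.1 CPM in controls (-0.08 ± 0.080). The small subunits Rfc4 and Rfc5 had the smallest p. Rfc5 stood at 5.23, 5.37 and 6.71 CPM in Yy1 cKO and at 7.09 and 9.93 CPM in controls (-0.56 ± 0.19, adjusted p = 0.056, edgeR), and Rfc4 at 3.17, 2.30 and 2.52 CPM against 4.03 and 3.85 CPM (-0.56 ± 0.21, adjusted p = 0.088, edgeR). Both were lower in every Yy1 cKO library than in either control without passing the test. Such a separation downward was found in 27% of all genes tested, called genes included. Rfc2 (-0.10), Rfc3 (-0.27) and Chtf18, the large subunit of the alternative loader (0.36), did not pass. The untested Dscc1 had 5, 1 and 3 counts in Yy1 cKO and 10 and 7 in controls.

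Of the 4 subunits of primase and polymerase alpha, which lay down the primers, none passed the test. Among all genes tested 12.6% were called lower and 10.7% higher. Prim1, the catalytic primase subunit, stood at 5.69, 5.64 and 6.66 CPM in Yy1 cKO and at 4.89 and 4.46 CPM in controls (0.36 ± 0.16, adjusted p = 0.16, edgeR). Pola1, the catalytic polymerase subunit, stood at 20.5, 20.1 and 19.6 CPM in Yy1 cKO and at 17.6 and 17.1 CPM in controls (0.21 ± 0.094, adjusted p = 0.14, edgeR). Both were higher in every Yy1 cKO library than in either control without passing the test. Such a separation upward was found in 25.2% of all genes tested, called genes included. Prim2 stood at 10.02, 9.91 and 11.1 CPM in Yy1 cKO and at 10.8 and 11.2 CPM in controls (-0.09 ± 0.12), and Pola2 had -0.15 ± 0.12.

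The catalytic subunits of the 2 extending polymerases moved in opposite directions. Pole, of the leading strand enzyme epsilon, stood at 2.92, 1.70 and 3.97 CPM in Yy1 cKO and at 6.18 and 6.36 CPM in controls (-1.13 ± 0.29, SE, adjusted p = 0.023, edgeR). Pold1, of the lagging strand enzyme delta, stood at 10.6, 9.75 and 11.49 CPM in Yy1 cKO and at 7.63 and 8.03 CPM in controls (0.44 ± 0.13, adjusted p = 0.034, edgeR). Pold1 was the only replication gene of the 56 that rose, and its call was lost in 6 of 16 alternatives, among them scaling by library size alone, DESeq2 and leaving out either control. The Pole call was lost without either control and without Yy1 cKO 1. Pold2 stood at 10.3, 10.1 and 10.1 CPM in Yy1 cKO and at 9.89 and 9.87 CPM in controls (0.04 ± 0.11). Pold3 (-0.07 ± 0.11) and Pole2 (-0.68 ± 0.35, adjusted p = 0.20, edgeR) did not pass.

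Of 5 enzymes of nucleotide supply 3 fell (60%, against 12.6% of all genes) and none rose (10.7% of all genes). Rrm2, the small subunit of ribonucleotide reductase, had 23, 33 and 28 counts in Yy1 cKO and 160 and 109 in controls, and fell by 2.30 ± 0.24 on the log2 scale (SE, adjusted p = 1.5e-04, edgeR). Tk1, cytosolic thymidine kinase, had 2, 1 and 4 counts in Yy1 cKO and 34 and 25 in controls (-3.64 ± 0.50, adjusted p = 7.2e-04, edgeR). In both genes every Yy1 cKO library lay far below both controls. Tyms, which makes thymidylate, fell by 1.05 ± 0.24 (adjusted p = 0.012, edgeR), a call lost without either control; it has a named pseudogene. Rrm1, the large subunit that RRM2 works with, stood at 28.6, 27.8 and 32.4 CPM in Yy1 cKO and at 31.5 and 31.6 CPM in controls (-0.09 ± 0.092, adjusted p = 0.53, edgeR). Dut, which removes dUTP, stood at 16.0, 15.6 and 12.99 CPM in Yy1 cKO and at 15.3 CPM in both controls (-0.04 ± 0.12, adjusted p = 0.85, edgeR).

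Enzymes outside the 58 that do related work in non-dividing cells were set beside these. Rrm2b, the small reductase subunit that serves repair and mitochondria, lay at a log2 fold change of -0.23 ± 0.10 (adjusted p = 0.14, edgeR), and Tk2, the mitochondrial thymidine kinase, -0.21 ± 0.11 (adjusted p = 0.20, edgeR). Per kb of exon Rrm2 stood at 0.537 CPM in Yy1 cKO and 2.65 CPM in controls, and Rrm2b at 2.24 CPM in Yy1 cKO and 2.63 CPM in controls. The ratio of Rrm2 to Rrm2b was 0.172, 0.303 and 0.253 in Yy1 cKO libraries and 1.24 and 0.793 in controls, without overlap (exact permutation test, two-sided p = 0.1, the smallest possible). Of 16 such counterpart genes 4 fell (25%, against 12.6% of all genes) and none rose (10.7% of all genes), with a median of -0.09. The falls were small: Dck, deoxycytidine kinase, fell by 0.47 ± 0.10, Top2b by 0.29 ± 0.056, Lig3 by 0.25 ± 0.064 and Top1 by 0.19 ± 0.059. The Top1 call was lost in 10 of 16 alternatives and the Lig3 call in 5, DESeq2 and leaving out either control among them for both; the Dck and Top2b calls were lost without control 2.

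**Figure D3:**
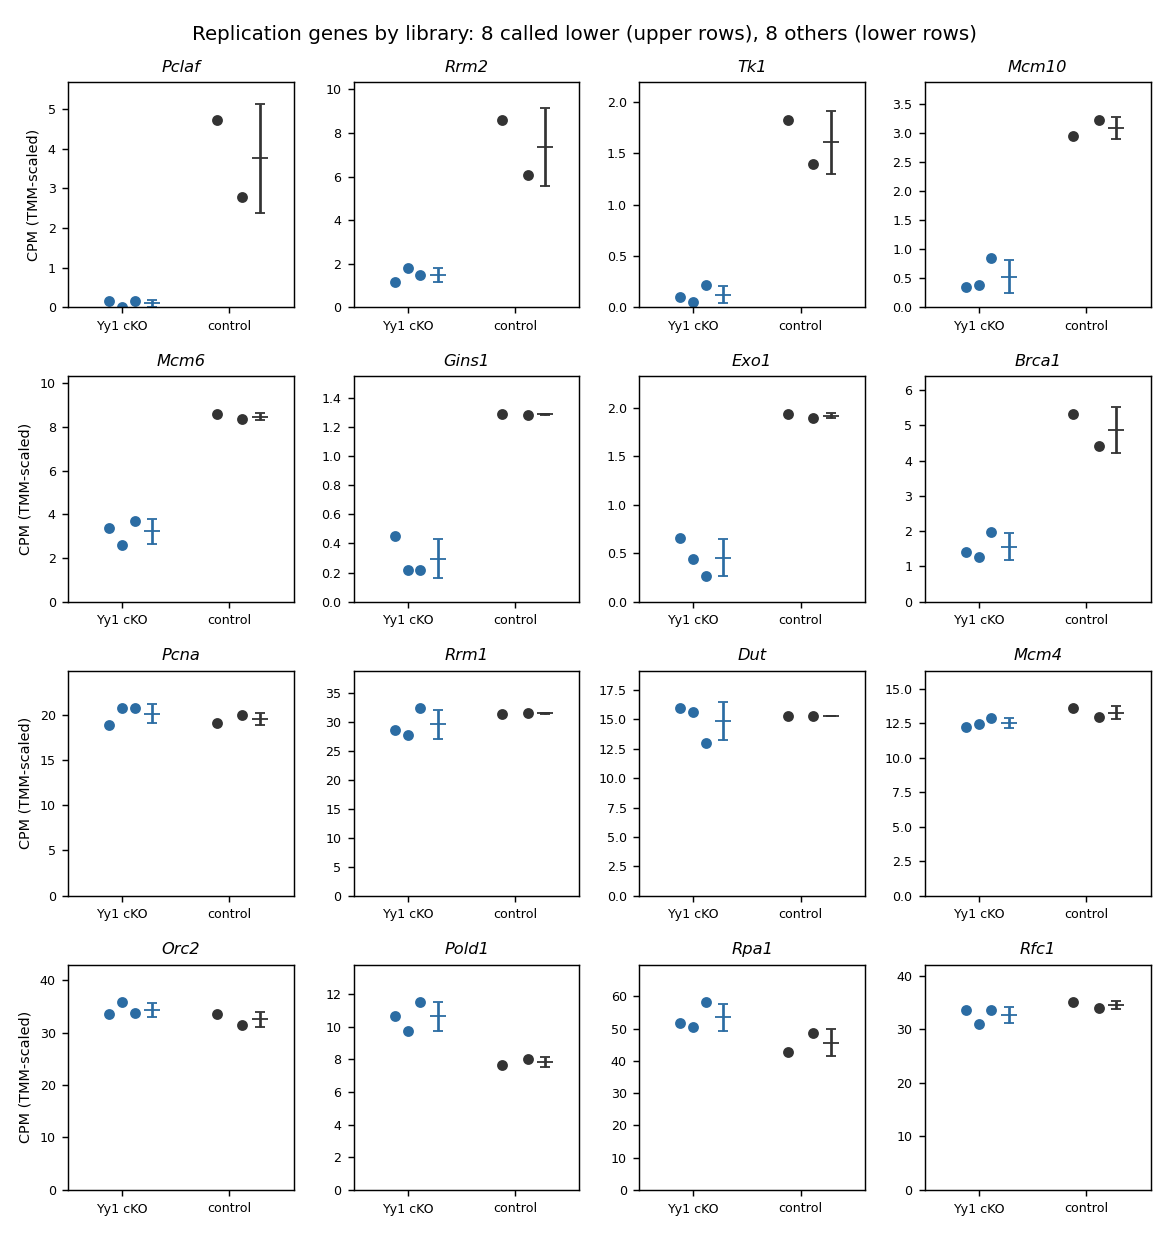
TMM-scaled CPM of 16 replication genes in each library, Yy1 cKO (blue) left of control (black), with mean and SD beside the points; each axis starts at 0. The 8 genes of the upper rows fell, Pclaf to 0, 0.151 and 0.161 CPM; of the 8 in the lower rows Pold1 rose and the others did not pass the test.

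Of the 3 genes that process and join the lagging strand, Exo1 alone fell (33.3%, against 12.6% of all genes). Exo1, a nuclease of repair and flap processing, had 13, 8 and 5 counts in Yy1 cKO and 36 and 34 in controls (-2.05 ± 0.37, SE, adjusted p = 0.0036, edgeR). Fen1, the flap endonuclease, stood at 9.26, 10.7 and 12.03 CPM in Yy1 cKO and at 11.3 and 13.7 CPM in controls, with overlapping groups (-0.23 ± 0.14). Lig1, the ligase that seals the fragments, stood at 10.3, 7.5 and 11.1 CPM in Yy1 cKO and at 9.24 and 9.31 CPM in controls (0.06 ± 0.17). RPA, which coats single strands in replication and repair, did not pass in any of its 3 subunits. Among all genes 12.6% were called lower and 10.7% higher. Rpa1, its large subunit, stood at 51.8, 50.5 and 58.2 CPM in Yy1 cKO and at 42.7 and 48.6 CPM in controls (0.23 ± 0.086, adjusted p = 0.088, edgeR). Rpa2 had 113, 103 and 119 counts in Yy1 cKO and 97 and 107 in controls (0.08 ± 0.16). Rpa3, the small subunit, had 93, 92 and 113 counts in Yy1 cKO and 99 and 87 in controls (0.05 ± 0.18).

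The chromatin assembly factor CAF-1 places histones on new DNA. Chaf1b, its middle subunit, had 7, 2 and 7 counts in Yy1 cKO and 17 and 18 in controls (-1.74 ± 0.50, SE, adjusted p = 0.031, edgeR). That call was lost with DESeq2 and when any of control 1, control 2, Yy1 cKO 1 or Yy1 cKO 2 was left out. Chaf1a, the large subunit, stood at 7.35, 7.01 and 8.11 CPM in Yy1 cKO and at 9.83 and 9.65 CPM in controls (-0.38 ± 0.13, adjusted p = 0.059, edgeR). Chaf1a was called lower in 3 of 16 alternatives. Both subunits were lower in every Yy1 cKO library than in either control, as were 27% of all genes tested.

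Proteins that guard the moving fork also divided. Clspn, claspin, the adaptor that relays stalled forks to the checkpoint kinase, had 10, 13 and 6 counts in Yy1 cKO and 37 and 27 in controls (-1.76 ± 0.38, SE, adjusted p = 0.0085, edgeR; lost without control 1). Timeless stood at 7.55, 5.75 and 7.68 CPM in Yy1 cKO and at 9.99 and 10.2 CPM in controls (-0.52 ± 0.15, adjusted p = 0.033, edgeR), a call lost in 5 of 16 alternatives. Its partner Tipin (-0.19 ± 0.12) did not pass. Wdhd1, which ties polymerase alpha to the helicase, stood at 11.48, 12.04 and 14.98 CPM in Yy1 cKO and at 10.4 and 12.9 CPM in controls (0.14 ± 0.15), and Mcmbp, an MCM binding protein, had 0.07 ± 0.069. Both repair genes of the list fell, where 12.6% of all genes were called lower. Brca1, of homologous recombination, had 28, 23 and 37 counts in Yy1 cKO and 99 and 79 in controls (-1.65 ± 0.24, adjusted p = 0.0012, edgeR). Blm, a helicase that resolves recombining strands, stood at 10.7, 10.7 and 12.6 CPM in Yy1 cKO and at 14.5 and 16.8 CPM in controls (-0.46 ± 0.12, adjusted p = 0.024, edgeR; lost in 5 of 16 alternatives).

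Of 33 further replication genes tested 6 fell (18.2%, against 12.6% of all genes) and 1 rose (10.7% of all genes), with a median of -0.08. Top2a, the topoisomerase of dividing cells, had 24, 27 and 13 counts in Yy1 cKO and 507 and 390 in controls (-4.43 ± 0.22, adjusted p = 4.0e-06, edgeR). Uhrf1, which guides maintenance methylation behind the fork, had 8, 7 and 11 counts against 113 and 127 (-3.82 ± 0.26), and Ticrr, treslin, a helicase activator, had 2, 7 and 8 counts against 44 and 41 (-2.93 ± 0.43). Topbp1 fell by 0.39 ± 0.096, a call lost without control 2, Yy1 cKO 1 or Yy1 cKO 2. Topbp1 also has named pseudogenes that could share its reads. The gene that rose was Rnaseh2c, a subunit of the nuclease that removes RNA from DNA (0.39 ± 0.099; lost without either control and without Yy1 cKO 1).

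The E2F and retinoblastoma family, which regulates many of the 58 genes, changed in 7 of 13 cases. There were 6 falls (46.2%, against 12.6% of all genes) and 1 rise (10.7% of all genes rose). The falls were E2f8 (-3.43 ± 0.64), E2f2 (-1.79 ± 0.31), E2f1 (-1.13 ± 0.20), E2f7 (-0.91 ± 0.19), E2f3 (-0.44 ± 0.090) and Rb1 (-0.21 ± 0.055). E2f1, a transcriptional activator, had 103, 105 and 63 counts in Yy1 cKO and 207 and 174 in controls (adjusted p = 0.0039, edgeR). E2f6, a repressor that acts without RB proteins, rose by 0.36 ± 0.094 (adjusted p = 0.023, edgeR). The E2f6 call was lost in 4 of 16 alternatives (library size alone and without control 1, control 2 or Yy1 cKO 2), and the Rb1 call in 4 (DESeq2 and without control 1, control 2 or Yy1 cKO 1). Without control 1 the E2f1, E2f3, E2f7 and E2f8 calls were lost, and without control 2 that of E2f3. E2f4, the factor of resting cells, had 0.23 ± 0.082 (adjusted p = 0.069, edgeR) and was called with the replicate block and without Yy1 cKO 3.

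**Figure D4:**
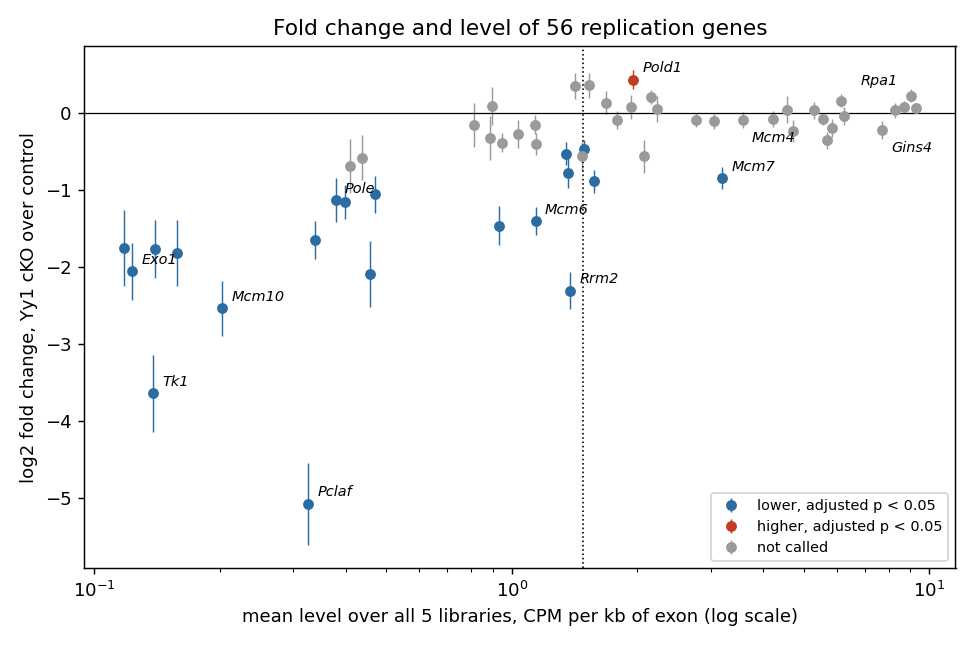
Log2 fold change (bar: standard error) of the 56 tested replication genes against their mean level over all 5 libraries in CPM per kb of exon, on a log scale. The dotted line divides the genes into 28 of lower and 28 of higher level; 17 of the 20 that fell lie left of it and 3 right of it.

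Most of the genes that fell were among those with lower levels. Split by mean level per kb over all 5 libraries, the 28 with lower levels (0.118 to 1.47 CPM per kb) held 17 that fell and had a median log2 fold change of -1.09. The 28 with higher levels (1.49 to 9.29 CPM per kb) held 3 that fell, Mcm5, Mcm7 and Blm, 1 that rose, and had a median of -0.06. The split was made after the values had been seen and carries no test, and the mean level itself includes the Yy1 cKO libraries. Summed over the 20 genes that fell, levels were 53.0, 51.1 and 61.9 CPM in Yy1 cKO and 123 and 111 CPM in controls. Summed over the other 36 they were 489.9, 484 and 520.2 CPM in Yy1 cKO and 493 and 507 CPM in controls. The groups overlapped in that sum. Both sums follow the call, which was made on the same values.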

How the data were processed

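The data are bulk RNA-seq of whole cerebella, 3 Yy1 cKO and 2 control libraries, grouped by the sample titles. Per the labels, RNA was depleted of ribosomal RNA, libraries were strand-specific and reads were paired, of 150 bp. The submitters' processing notes name STAR (2.7.1a) and featureCounts, beside DESeq2 (1.26.0), FastQC (0.11.8) and Trimmomatic (0.39), on the build GRCm38. How these were run, with which strand setting and which rule for multi-mapping reads, is not given in the sources used here. The authors deposited raw counts of 55421 genes and a normalized signal, which in each library equals the count divided by 1 constant.

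Symbols and exon lengths came from GENCODE M21 (54673 identifiers matched with version, 567 without, 181 unmatched), and promoters from RefSeq (47 of 58 genes matched). The test was edgeR 4.0.16 (R 4.3.3, quasi-likelihood, TMM, filterByExpr, robust dispersion) on raw counts over all genes, with Benjamini-Hochberg adjustment; it was tested on simulated data. Total counts were 17424860 to 20305705 per library, with a common biological coefficient of variation of 10.5%. CPM is scaled by TMM. Library pairs differed by more than sampling noise (chi-square per gene 3.51 to 16.7 within groups), so none was a copy. Members, lists and tests were chosen with earlier results of these data known. Within each role the text gives library values for the 2 genes with the smallest p and the 1 with the largest, and for all in roles of 3 or fewer. Others are added where they belong to the same complex. Alternatives were other scalings, filters and tools (DESeq2 1.42.0, limma 3.58.1), a replicate block, Xist as a covariate and leaving out each library.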

Additional observations from a re-analysis of the deposited data

How the results depend on the processing

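Of 16 alternatives to the test, none turned the direction of a replication gene's call: 842 of 892 gene values kept their side of the threshold, 34 lost a call and 16 gained one. Of the 20 genes called lower, 10 kept the call in every alternative that tested them and 10 lost it in at least 1. Of the genes not called, 6 were called in at least 1 alternative. These were Rfc5 and Orc6 in 5 each, Chaf1a in 3, and Mcm2, Fen1 and Rpa1 in 1 each. Tk1, Cdc6, Gins1 and Chaf1b were tested in 15 alternatives, since they average under 1 CPM, and the others in 16. The count called lower was 11 to 23 with 1 library left out, 11 without control 1 and 13 without control 2. The count called higher was 0 with library size alone and with DESeq2, 2 with no filter on low counts, and 0 to 1 with 1 library left out. The median log2 fold change was -0.37 with library size alone, -0.23 when only genes averaging 1 CPM or more were tested, and -0.36 to -0.24 with 1 library left out. In the 250 bases before the start alone, 4 of 17 genes called lower held an E2F match (23.5%; 8 in the whole window), as did 4 of 29 not called lower (13.8%) and 3.63% of all genes tested. The replicate numbers share 2 pairs, whose deviations from the group means correlated at 0.037 and 0.013. With 2 controls their deviations mirror each other, so these values cannot decide whether the libraries are paired. With the replicate block 24 genes were called lower and 1 higher. The share of all genes called also changed between alternatives, so the counts given here do not by themselves compare them. Leaving out a control leaves 1, which is then taken to vary like the Yy1 cKO libraries. Genes with few counts, such as Chaf1b with 2 to 18, limit the precision.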

Other observations

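Among the 20 replication genes that fell, 15 were higher in control 1 than in control 2, with a median log2 ratio of 0.15; of the other 36 tested, 17 were higher in control 1, with a median of -0.004. Rif1, which acts in replication timing and was named after its values were seen, had 6717, 5423 and 8577 counts in Yy1 cKO and 3718 and 4073 in controls, without passing the test (0.77 ± 0.22, adjusted p = 0.077, edgeR). It was called in 5 of 16 alternatives: DESeq2, edgeR without robust dispersion, the replicate block, and without Yy1 cKO 2 or Yy1 cKO 3. Its adjusted p over the alternatives was 3.6e-09 to 0.26.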
